A study of Mus musculus with 2 samples.

Results

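Cadherins, the protocadherins outside the clustered families, and catenins were examined as 1 set of adhesion genes in mouse hippocampus. Members were taken by symbol: numbered Cdh and Pcdh genes, Celsr1 to Celsr3, Fat1 to Fat4, Ctnna1 to Ctnna3, Ctnnb1, Ctnnd1 and Ctnnd2, each with at least 1 protein-coding transcript. The rule used no measured level and gave 48 of 55536 annotated genes, of which 42 belong to the cadherin superfamily and 6 are catenins. Plakoglobin, desmosomal cadherins and the clustered alpha, beta and gamma protocadherins fall outside it.

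Both libraries were total RNA from hippocampus of female B6CASTF1/J mice, the hybrid offspring of the C57BL/6J and CAST/EiJ strains, at 2 months of age, with 300 ng of RNA put into each library. They form 1 group with no treatment, and they are named here replicate 1 and replicate 2. The labels number them as biological replicates with a tissue record each, yet list the same donor record for both, so the spread between them could be in part technical. Annotated genes received 29490900 expected counts in replicate 1 and 30691917 in replicate 2. Over 17782 genes the coefficient of variation between the libraries beyond counting error, from 1 common dispersion for all genes, was 4.86%. All 5 CA1 markers, all 5 CA3 markers, all 7 dentate granule cell markers and 3 of 4 CA2 markers were detected, so markers of the labelled tissue were present. All 5 neocortical layer markers and all 5 thalamic markers were detected too, as were 58.0% of all protein-coding genes. Detection alone therefore does not set hippocampus apart from neighbouring tissue.

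Classical cadherins are calcium-dependent adhesion proteins that bind like partners on the facing membrane. Inside the cell their tails bind p120-family catenins near the membrane and beta-catenin further along, and beta-catenin binds alpha-catenin, which couples the complex to actin. In the hippocampus this complex lies at synapses beside the transmitter release zone. Protocadherins lack the catenin-binding tail and use other effectors, while Celsr and Fat proteins are very large cadherins known from planar cell polarity.

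Of the 48 members, 39 (81.25%) were detected, meaning 1 TPM or more in both libraries, where TPM is a length-corrected transcript share scaled to a fixed total. Among all 22028 protein-coding genes 12786 (58.0%) were detected. The members summed to 1165 TPM in replicate 1 and 1148 TPM in replicate 2. Beta-catenin, Pcdh1, Ctnnd2, Celsr2 and Pcdh9 together held 53.0% of that sum in replicate 1 and 51.4% in replicate 2, so the level was concentrated in few genes. The cadherin superfamily members summed to 790.5 ± 9.79 TPM and the catenins to 366 ± 2.03 TPM (mean ± SD, n = 2). By mean level 25 members exceeded 10 TPM, 6 exceeded 50 TPM and 2 exceeded 100 TPM.

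**Figure D1:**
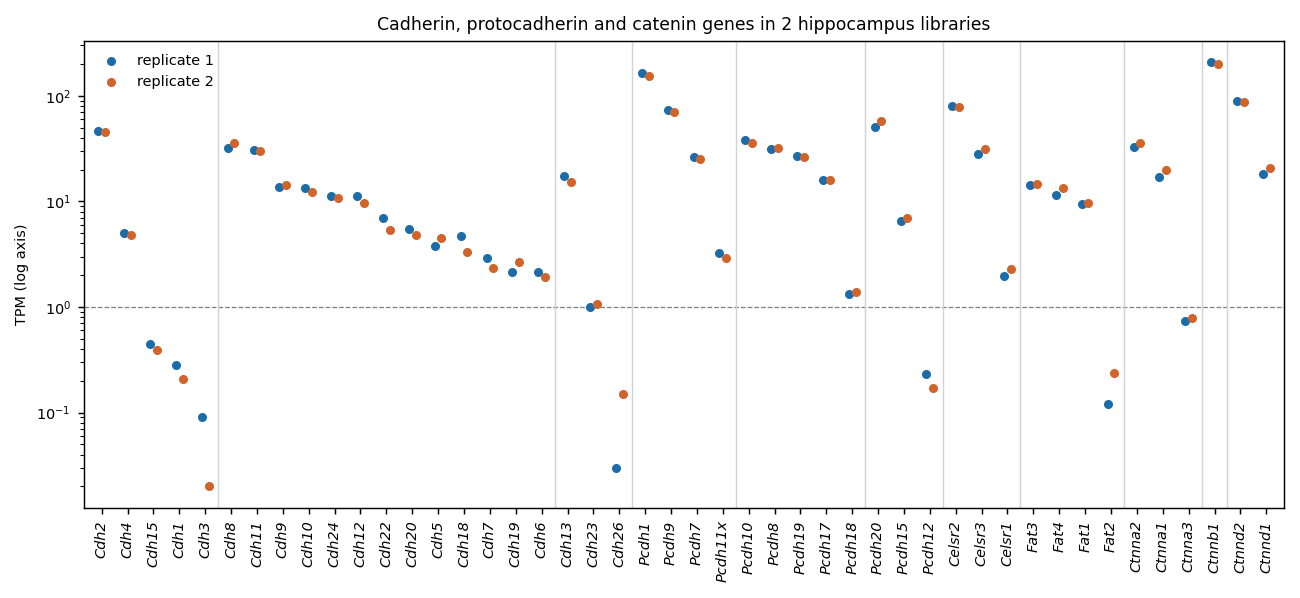
TPM of the 46 members with any count, on a log axis, in replicate 1 (blue) and replicate 2 (orange), ordered by role and by level within a role; the dashed line marks 1 TPM. Both points of a gene lie close together above 1 TPM, and beta-catenin stands highest at 209 and 200.3 TPM.

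Splice forms were read from the authors' transcript tables, in which each library's TPM is divided among annotated transcripts. A coding cassette exon is taken here as an internal exon of at most 300 bases that is wholly coding in some transcript and that another annotated transcript of the gene, of any type, skips, with at least 1 TPM in each library on the transcripts that carry or skip it. Its inclusion is the share of TPM on transcripts with the exon among those that carry or skip it, so it is an estimate over whole transcripts and not a count of junction reads. Among 73 such exons in 18 detected members, 14 exons in 9 genes had an inclusion between 10% and 90% in both libraries. All 14 had a length that is a multiple of 3, which keeps the reading frame, against 44 of all 73. That count rests on the requirement for both libraries: in replicate 1 alone 15 of 17 exons in that range were multiples of 3, in replicate 2 alone 22 of 28, and the exceptions were all in Pcdh15. All 14 lay within 15 percentage points of the mean given by a second set of deposited transcript values, called the second quantification below. In that quantification 18 exons lay between 10% and 90% in both libraries, of which 15 were multiples of 3. Of the 3 exceptions 2 were in Pcdh15 and the other was a 137-base exon of Cdh10, so the result also depends on the quantification. Of the 14 exons 8 are printed beside their genes, chosen because the catenin, Celsr, Pcdh and Fat results turn on them. Capitals mark the exon and lower case up to 15 coding bases on each side in the spliced transcript, 5′ to 3′, from the GENCODE M21 transcript sequences with mm10 coordinates.

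Among type I classical cadherins, which form the classical catenin-bound junctions, Cdh2 held most of the signal. Cdh2, or N-cadherin, the main classical cadherin of central synapses, had 46.1 and 45.2 TPM in replicates 1 and 2 (ENSMUSG00000024304.14). Cdh4, or R-cadherin, had 5.0 and 4.84 TPM. Cdh2 was thus 9.28-fold above Cdh4, with a log2 ratio of 3.21 ± 0.01 (SD, n = 2), and it made up 88.8% and 89.2% of the type I sum. The epithelial E-cadherin gene Cdh1 had 0.28 and 0.21 TPM, the M-cadherin gene Cdh15, known from muscle, had 0.45 and 0.39 TPM, and the P-cadherin gene Cdh3 had 0.09 and 0.02 TPM. So 2 of 5 type I members were detected, and the library values of Cdh2 and Cdh4 were far apart.

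All 13 type II classical cadherins were detected, at a summed 140 ± 2.40 TPM (SD, n = 2), with no dominant member. Cdh8 was highest with 32.3 and 35.5 TPM in replicates 1 and 2 (ENSMUSG00000036510.17, chromosome 8, 99024471 to 99416471, - strand, mm10). Cdh11, also found in mesenchymal cells, had 30.9 and 30.2 TPM. The authors' intervals of Cdh8 and Cdh11 overlapped in replicate 1 and were separate in replicate 2, so their order in gene TPM was not resolved in every library. In the second quantification Cdh8 lay below Cdh11 in replicate 1 (log2 ratio -0.21) and above it in replicate 2 (0.24). Retained-intron transcripts held 30.5% and 32.6% of Cdh11 TPM in replicates 1 and 2, and 3.19% and 3.27% of Cdh8 TPM. In coding TPM Cdh8 lay above Cdh11 in both libraries of each quantification. Cdh10 had 13.5 and 12.3 TPM. Its close paralogue Cdh9, a cadherin known from mossy fibre synapses between dentate granule and CA3 cells, had 13.7 and 14.4 TPM. The intervals of Cdh10 and Cdh9 overlapped in replicate 1 and were separate in replicate 2, with a mean log2 ratio of -0.13 ± 0.14 (SD, n = 2), which is within the spread.

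A middle range followed within the type II list. Cdh24 had 11.3 and 10.7 TPM in replicates 1 and 2. Cdh12, a brain cadherin, had 11.4 and 9.76 TPM. In gene TPM both lay above every remaining type II gene in both libraries, and their own library values overlapped. A 404-base processed transcript held 4.92 and 3.25 TPM of Cdh12, on 32.6 and 22.4 counts. The coding transcript of Cdh12 had 6.43 and 6.52 TPM, which in replicate 1 was below Cdh22. Cdh22, first described in pituitary and brain, had 6.93 and 5.40 TPM. Cdh20 had 5.47 and 4.84 TPM, and Cdh18 had 4.74 and 3.33 TPM. These values overlapped in part, with replicate 1 higher for each gene.

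The lowest type II members included one that marks vessels. Cdh5, or VE-cadherin, the junction cadherin of endothelial cells, had 3.81 and 4.55 TPM in replicates 1 and 2. All 6 endothelial markers examined were detected, summing to 62.2 TPM in replicate 1 and 58.0 TPM in replicate 2; in bulk RNA, fewer cells of a type and less RNA per cell cannot be told apart. Cdh7 had 2.93 and 2.32 TPM, Cdh19, known from Schwann cell precursors and other glia, had 2.15 and 2.67 TPM, and Cdh6 had 2.15 and 1.93 TPM. These 3 did not differ from their neighbours in the order beyond the spread, except that Cdh6 lay above the next gene, Pcdh18.

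Of the other cadherins, Cdh13 stood alone at a level near those of the middle type II genes. Cdh13, or T-cadherin, which is anchored by a lipid and has no cytoplasmic tail, had 17.5 and 15.4 TPM in replicates 1 and 2 (ENSMUSG00000031841.19, chromosome 8, 118283733 to 119324921, + strand, mm10). It reached 0.36-fold of Cdh2, a log2 ratio of -1.48 ± 0.12 (SD, n = 2). Cdh23, a partner in the tip link of hair cells in the inner ear, had 1.01 and 1.07 TPM. Its mean lay at the detection minimum, and the second quantification gave 1.2 and 3.17 TPM, so its level was poorly fixed. Cdh26 had 0.03 and 0.15 TPM. The kidney cadherin gene Cdh16 and the intestinal cadherin gene Cdh17 had 0 counts in both libraries; 3 counts, taken as the limit that a count of 0 allows, correspond to 0.102 CPM, a count rescaled so that all libraries have an equal sum, in replicate 1 and 0.0977 in replicate 2. The authors' interval for Cdh16 ran from 0.501 to 1.72 TPM in replicate 1 although its TPM was listed at 0, and the second quantification gave Cdh17 0.460 and 0.274 TPM.

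Beta-catenin led the whole set in gene TPM, summed over transcripts of all types. Ctnnb1, which encodes the link between cadherin tails and alpha-catenin and also the co-activator of canonical Wnt signalling, had 209 TPM in replicate 1 and 200.3 TPM in replicate 2 (ENSMUSG00000006932.17, chromosome 9, 120929216 to 120960507, + strand, mm10). Its mean of 205 ± 6.50 TPM (SD, n = 2) exceeded that of 98.9% of protein-coding genes. Coding transcripts held 63.8% and 63.5% of its TPM and retained-intron transcripts 36.07% and 36.05%. The retained-intron transcripts held 16.5% and 16.2% of its counts, so the coding level is below the gene total. All Pcdh1 transcripts are coding, and in coding TPM Pcdh1 lay above beta-catenin in both libraries. In the second quantification coding transcripts held 70.9% and 66.3% of beta-catenin TPM, and beta-catenin stayed above Pcdh1. Its exons overlap 759 bases of Ulk4 on the opposite strand, which had 277 and 331 counts against 11115 and 11333 for Ctnnb1; whether the counting used strand is not stated.

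Alpha-catenins couple the complex to actin. Ctnna2, the neuronal alpha-N-catenin, had 32.9 and 35.8 TPM in replicates 1 and 2 (ENSMUSG00000063063.12, chromosome 6, 76881637 to 77979699, - strand, mm10). Ctnna1, the widely expressed alpha-E-catenin, had 16.9 and 19.9 TPM. The neuronal form was therefore higher, 1.87-fold with a log2 ratio of 0.91 ± 0.08 (SD, n = 2), and the authors' intervals were separate in both libraries. Ctnna3, or alpha-T-catenin, known from heart and testis, had 0.73 and 0.78 TPM and missed the minimum. Beta-catenin exceeded Ctnna2 5.97-fold, with a log2 ratio of 2.58 ± 0.13 (SD, n = 2).

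Most Ctnna2 transcripts skipped a cassette exon of 144 bases that lies near the end of the coding sequence. Its inclusion was 20.9% and 22.8% in replicates 1 and 2, and 9.89% and 10.8% in the second quantification, so skipping prevailed in both, with the included share depending on the quantification. The sequence is shown because it separates the neuronal alpha-catenin forms.
Ctnna2 exon (chr6:76902287-76902430, - strand): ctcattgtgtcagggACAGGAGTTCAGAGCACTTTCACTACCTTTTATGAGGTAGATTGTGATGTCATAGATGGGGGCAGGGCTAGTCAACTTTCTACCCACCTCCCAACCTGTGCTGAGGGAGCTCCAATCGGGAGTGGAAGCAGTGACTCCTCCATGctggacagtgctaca

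The p120 family, which binds the part of the cadherin tail near the membrane and holds cadherins at the surface, was led by its neuronal member. Ctnnd2, or delta-catenin, had 89.0 and 87.1 TPM in replicates 1 and 2 (ENSMUSG00000022240.10, chromosome 15, 30172593 to 31029341, + strand, mm10). Ctnnd1, or p120-catenin, had 18.3 and 20.7 TPM. Ctnnd2 was 4.53-fold above Ctnnd1, a log2 ratio of 2.18 ± 0.14 (SD, n = 2), and 5.62-fold in the second quantification. Ctnnd1 shares 4482 exonic bases on its own strand with Gm28635, which was given 188 and 137 counts against 1963 and 2119 for Ctnnd1, so the division of reads between these genes is uncertain.

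Both p120-family genes mixed splice forms. The 75-base exon of Ctnnd2 was carried by 56.6% and 57.9% of the TPM in replicates 1 and 2, and by 49.3% and 49.8% in the second quantification. In Ctnnd1 the 63-base exon had an inclusion of 47.7% and 39.7%, and the 18-base exon 68.5% and 75.3%. In all 3 exons neither form was rare in either library, and the sequences are shown to place the alternative segments.
Ctnnd2 exon (chr15:30920712-30920786, + strand): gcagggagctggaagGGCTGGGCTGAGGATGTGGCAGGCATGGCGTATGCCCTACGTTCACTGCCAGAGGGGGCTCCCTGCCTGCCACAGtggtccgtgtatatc
Ctnnd1 exon of 63 bases (chr2:84605184-84605246, - strand): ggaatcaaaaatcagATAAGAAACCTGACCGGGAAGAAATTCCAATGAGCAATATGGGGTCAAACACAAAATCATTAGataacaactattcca
Ctnnd1 exon of 18 bases (chr2:84612532-84612549, - strand): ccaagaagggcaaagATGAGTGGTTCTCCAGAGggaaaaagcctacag

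**Figure D2:**
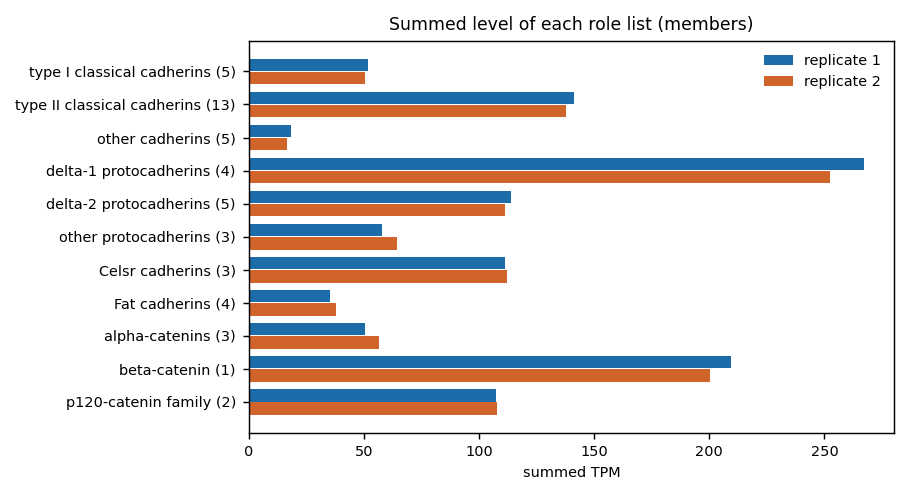
Summed TPM of each role list in replicate 1 (blue) and replicate 2 (orange), with the number of members in parentheses. Delta-1 protocadherins had the longest bars at 267 and 253 TPM, followed by beta-catenin.

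Delta-1 protocadherins, which carry a tail motif that binds protein phosphatase 1, had the highest summed level of any role list, 260 ± 10.2 TPM (SD, n = 2) from 4 genes. Pcdh1 had 165 and 154 TPM in replicates 1 and 2 (ENSMUSG00000051375.15). Pcdh9 had 72.9 and 70.4 TPM. Pcdh7 had 26.3 and 25.5 TPM, so Pcdh9 exceeded it 2.77-fold with a log2 ratio of 1.469 ± 0.0044 (SD, n = 2). The X-linked Pcdh11x had 3.26 and 2.90 TPM. All 4 were detected, and the 3 highest were each separate from the next delta-1 gene in both libraries.

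Retained-intron transcripts held 28.1% and 26.2% of Pcdh9 TPM in replicates 1 and 2, and 4.35% and 3.97% of its counts. Pcdh1 and Pcdh7 have no annotated retained-intron transcript, so no such share could be measured for them. A 102-base coding exon of Pcdh9 had an inclusion of 17.7% and 13.5%, and of 27.1% and 22.6% in the second quantification. Skipping prevailed in each case, and the exon is shown because it separates forms of the gene. In Pcdh11x, exons of 30 and 24 bases had inclusions of 69.8% and 67.2%, and of 66.7% and 58.5%.
Pcdh9 exon (chr14:93560476-93560577, - strand): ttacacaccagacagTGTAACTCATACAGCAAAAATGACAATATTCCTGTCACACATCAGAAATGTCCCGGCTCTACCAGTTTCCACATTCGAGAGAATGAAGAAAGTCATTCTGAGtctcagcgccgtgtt

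Delta-2 protocadherins, several of which recruit the WAVE complex to regulate actin, summed to 113 ± 1.81 TPM (SD, n = 2) and all 5 were detected. Pcdh10, which binds the WAVE complex subunit Nckap1, had 38.1 and 35.9 TPM in replicates 1 and 2 (ENSMUSG00000049100.15, chromosome 3, 45378398 to 45435623, + strand, mm10). Pcdh8, or arcadlin, known as an activity-induced gene of hippocampal neurons, had 31.5 and 31.9 TPM. The X-linked Pcdh19, whose human counterpart is mutated in an epilepsy that affects mainly females, had 27.2 and 26.2 TPM. The gene TPM values of these 3 genes, over all transcript types, did not overlap between genes. The authors' intervals of neighbours did overlap in part. Pcdh17 had 15.9 and 16.1 TPM, or 0.43-fold of Pcdh10 (log2 ratio -1.21 ± 0.07, SD, n = 2), and Pcdh18 had 1.34 and 1.38 TPM.

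The 141-base exon of Pcdh19 was carried by most of its transcripts. Its inclusion was 77.2% and 78.3% in replicates 1 and 2, and 73.1% and 74.1% in the second quantification. The SD between the libraries was 0.747 points in the first quantification and 0.697 in the second (n = 2). The exon is shown as the only coding cassette exon found in a delta-2 gene. In Pcdh10 a different coding transcript led in each library, with 28.9% of the TPM in replicate 1 and 27.9% in replicate 2, and the runner-up held 28.1% and 27.4%.
Pcdh19 exon (chrX:133682092-133682232, - strand): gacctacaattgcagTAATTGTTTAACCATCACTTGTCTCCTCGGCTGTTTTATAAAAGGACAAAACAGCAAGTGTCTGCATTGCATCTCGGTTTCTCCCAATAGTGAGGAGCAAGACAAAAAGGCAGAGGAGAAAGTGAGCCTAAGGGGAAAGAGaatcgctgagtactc

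The remaining protocadherins were led by Pcdh20, with 51.3 and 57.4 TPM in replicates 1 and 2 (ENSMUSG00000050505.7, chromosome 14, 88464743 to 88471396, - strand, mm10). It was the highest protocadherin after Pcdh1 and Pcdh9. Pcdh15, the other tip link partner in hair cells, had 6.59 and 6.91 TPM. Retained-intron transcripts held 49.3% and 46.2% of Pcdh15 TPM, so its coding level was lower than the gene total. Its micro-exons of 15, 9 and 6 bases had mean inclusions of 38.7%, 68.7% and 56.2%, with SDs of 6.12, 6.56 and 11.2 points (n = 2). The second quantification gave means of 36.2%, 54.8% and 57.0%, with SDs of 5.73, 5.41 and 23.1 points (n = 2). The inclusion of the 6-base exon was therefore poorly fixed, at 73.4% and 40.7% in replicates 1 and 2 there. The endothelial protocadherin gene Pcdh12 had 0.23 and 0.17 TPM and was not detected.

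Celsr cadherins, multi-pass receptors of planar polarity that also guide axon tracts, summed to 112 ± 0.552 TPM (SD, n = 2). Celsr2 had 80.9 and 78.6 TPM in replicates 1 and 2 (ENSMUSG00000068740.13, chromosome 3, 108390851 to 108415552, - strand, mm10). Celsr3 had 28.4 and 31.1 TPM, and Celsr1 had 1.96 and 2.28 TPM. Celsr2 exceeded Celsr3 2.69-fold, a log2 ratio of 1.43 ± 0.12 (SD, n = 2), and the 3 genes did not overlap in any library. Retained-intron transcripts held 28.5% and 34.7% of Celsr3 TPM but 1.76% and 2.23% of its counts.

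A micro-exon of 15 bases in Celsr3 was included in 83.1% and 84.8% of TPM in replicates 1 and 2, and in 83.6% and 87.5% in the second quantification. It is the exon with the highest inclusion among the 14. The estimate rests on 1 annotated transcript with the exon and 1 without it.
Celsr3 exon (chr9:108838760-108838774, + strand): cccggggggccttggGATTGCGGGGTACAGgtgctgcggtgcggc

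Fat cadherins are the largest cadherins, and 3 of 4 were detected. Fat3 had 14.4 and 14.7 TPM in replicates 1 and 2 (ENSMUSG00000074505.5, chromosome 9, 15910189 to 16501285, - strand, mm10). Fat4, a receptor for the ligand Dchs1, had 11.5 and 13.5 TPM, and Fat1 had 9.37 and 9.63 TPM. Fat3 exceeded Fat1 1.53-fold, with a log2 ratio of 0.611 ± 0.0068 (SD, n = 2). Fat2, known from cerebellar granule cells, had 0.12 and 0.24 TPM and was not detected.

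Fat1 and Fat3 each have cassette exons of 60 and 36 bases in the coding sequence. Over transcripts of all types, both exons had a higher inclusion in Fat1. The 60-base exon of Fat1 had an inclusion of 14.3% and 16.8% in replicates 1 and 2. The 60-base exon of Fat3 had 3.40% and 3.17%. The second quantification gave 20.97% and 21.10% for Fat1 and 2.94% and 2.77% for Fat3, so no value of Fat1 overlapped one of Fat3. For the 36-base exons the inclusion was 14.4% and 17.4% in Fat1 and 3.40% and 3.17% in Fat3. In Fat3 1 annotated transcript carries both exons, at 0.47 and 0.44 TPM in replicates 1 and 2. In Fat1 the transcripts with either exon held the same 1.34 and 1.62 TPM in the first quantification. The 36-base values are therefore not a second, independent measurement. Between the genes the 60-base exons have the same letter at 46 of 60 positions (76.7%) and the 36-base exons at 13 of 36 (36.1%), counted without gaps. The 60-base pair is shown for that likeness.
Fat1 exon (chr8:45047650-45047709, + strand): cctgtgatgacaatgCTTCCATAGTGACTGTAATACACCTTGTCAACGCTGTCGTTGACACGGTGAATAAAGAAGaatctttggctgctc
Fat3 exon (chr9:15916936-15916995, - strand): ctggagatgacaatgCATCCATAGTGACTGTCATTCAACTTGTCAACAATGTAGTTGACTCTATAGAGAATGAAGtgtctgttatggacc

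**Figure D3:**
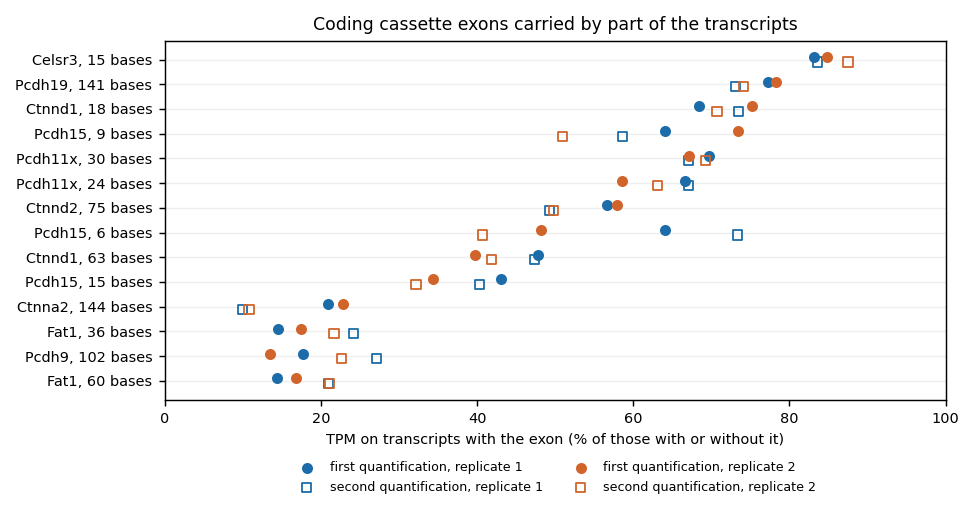
Inclusion of the 14 mixed coding cassette exons, as the percentage of TPM on transcripts with the exon among those with or without it, in the first quantification (filled circles) and the second (open squares) for replicate 1 (blue) and replicate 2 (orange). Celsr3 lies at the top with 83.1% and 84.8%, and the Fat1, Pcdh9 and Ctnna2 exons lie lowest.

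Over the whole order of levels, 21 of 38 neighbouring pairs of detected members were separate, in that the lower library of the higher gene exceeded the higher library of the next. The first 9 genes, Ctnnb1, Pcdh1, Ctnnd2, Celsr2, Pcdh9, Pcdh20, Cdh2, Pcdh10 and Ctnna2, were each separate from the next down to Ctnna2, which was not separate from Cdh8. This order is of gene TPM over all transcript types. In coding TPM Pcdh1 lay above Ctnnb1, and Ctnna2 above Pcdh10, in both libraries. A 634-base processed transcript held 25.5% and 24.5% of Pcdh10 TPM in replicates 1 and 2, but 2.73% and 2.60% of its counts. Among the other pairs that were not separate were Cdh11 and Celsr3, Pcdh19 and Pcdh7, and the run Ctnnd1, Ctnna1, Cdh13 and Pcdh17. The members are long genes, with a median span of 124 kb against 17.3 kb for all protein-coding genes, and 27 of 48 (56.25%) span over 100 kb, against 11.3% of protein-coding genes. The 26 detected members over 100 kb had a median of 12.7 TPM and the 13 shorter ones a median of 29.7 TPM.

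The leading transcript, the one with the highest TPM of a gene, was the same in both libraries for 37 of 39 detected members, with Pcdh10 and Pcdh15 as exceptions. It held over 50% of the gene's TPM in both libraries in 28 members and over 80% in 11. It was typed protein-coding in 36 members. The exceptions were Pcdh15, led in mean share by a retained-intron transcript, Cdh7, led by a transcript typed for nonsense-mediated decay, and Cdh23, led by a processed transcript. The second quantification named the same leading transcript in both libraries for 28 of the 39 members, so the identity of the leader was less sure than the gene level.

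Over all detected members, coding transcripts held 83.4% ± 0.0011 of the TPM and retained-intron transcripts 13.5% ± 0.012 (SD, n = 2). Over all 12766 detected nuclear protein-coding genes the values were 82.3% ± 0.320 and 9.48% ± 0.210. On counts the order was the other way, with retained-intron transcripts at 3.10% ± 0.040 for the members and 4.84% ± 0.128 for all genes. The 5 members with over 20% of TPM on retained-intron transcripts in both libraries were Ctnnb1, Pcdh9, Cdh11, Celsr3 and Pcdh15.

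**Figure D4:**
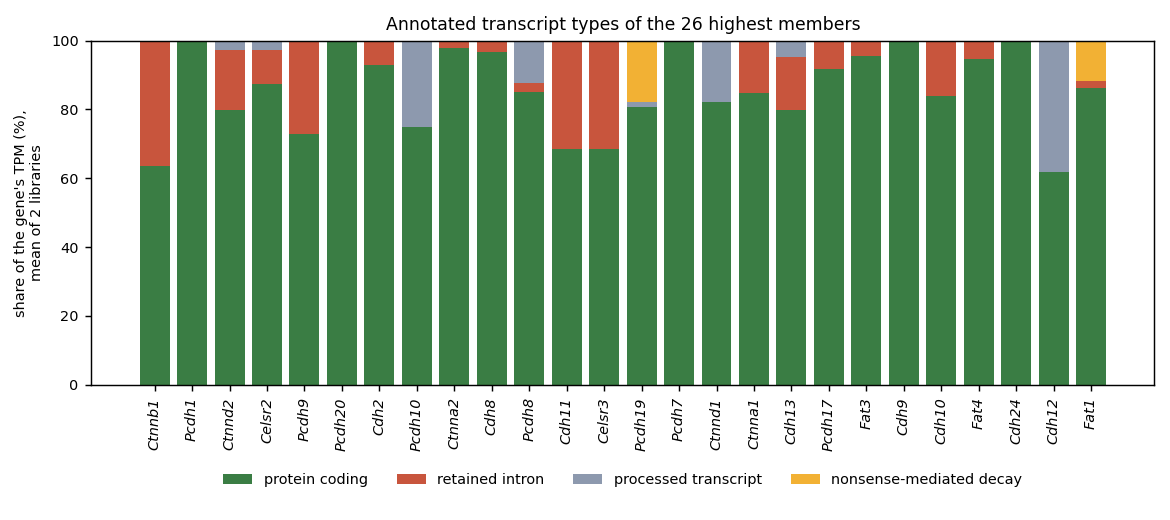
Share of each gene's TPM on annotated transcript types, as the mean of both libraries, for the 26 highest members in order of level. Ctnnb1, Pcdh9, Cdh11 and Celsr3 show the retained-intron parts above 20%, and Pcdh10 and Cdh12 show large processed-transcript parts.

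Differences between the libraries were small for nearly all members. At a mean of 1 CPM or more, 41 members could be compared, and in 1 of them the log2 ratio of replicate 2 over replicate 1 reached 1 in either direction, against 0.516% of all 15509 genes so compared. That gene was Fat2, with 78 counts in replicate 2 and 36 in replicate 1, a log2 ratio of 1.04 and a count ratio of 2.07 (95% interval 1.38 to 3.17, exact, counting error only). Of 4 cerebellar markers 1 was detected and none was at 0. They summed to 9.03 TPM in replicate 2 and 4.39 TPM in replicate 1. Zic1, the 1 detected, carried most of that sum, with 7.17 TPM in replicate 2 and 3.44 TPM in replicate 1. Its counts were 388 and 278 in replicates 2 and 1, a log2 ratio of 0.42. The others had from 6 to 23 counts in a library. The part of these markers in the Fat2 difference was not tested. With 1 library against 1, no p-value was computed.

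The median log2 ratio of the 41 members was -0.03, and that of all genes compared was -0.01, with 15 members higher in replicate 2 and 26 lower. The median size of the ratio was 0.08 in the members and 0.08 over all genes. The authors' TPM intervals of the libraries were separate for 7 of the 41 members, against 679 of all 15509 genes compared (4.38%), without matching on count. Those higher in replicate 2 were Pcdh20 (log2 ratio 0.15), Cdh8 (0.14), Fat4 (0.22) and Fat2. Those lower in replicate 2 were Pcdh1 (-0.11), Cdh22 (-0.36) and Cdh18 (-0.48). The counting interval of the ratio left out 1 for 13 members, 5 higher and 8 lower in replicate 2, against 18.8% of all genes compared, a comparison that was not matched on count.

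Among the cell type markers, 0 of 84 compared reached a log2 ratio of 1 in either direction, beside the 0.516% over all genes. Sums of some lists differed between the libraries. The 7 dentate granule cell markers summed to 226 TPM in replicate 2 and 192 TPM in replicate 1, with 6 of 7 higher in replicate 2. The 5 oligodendrocyte markers summed to 938 and 844 TPM in replicates 2 and 1, and all 5 were higher in replicate 2. The 6 choroid plexus markers, of which 3 were detected and none was at 0, summed to 73.4 TPM in replicate 2 and 130.2 TPM in replicate 1. Ttr carried that difference, with 65.7 TPM in replicate 2 and 121 TPM in replicate 1, while the other 5 summed to 7.69 and 9.29 TPM in replicates 2 and 1. The part of these markers in the members' ratios was not tested.

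**Figure D5:**
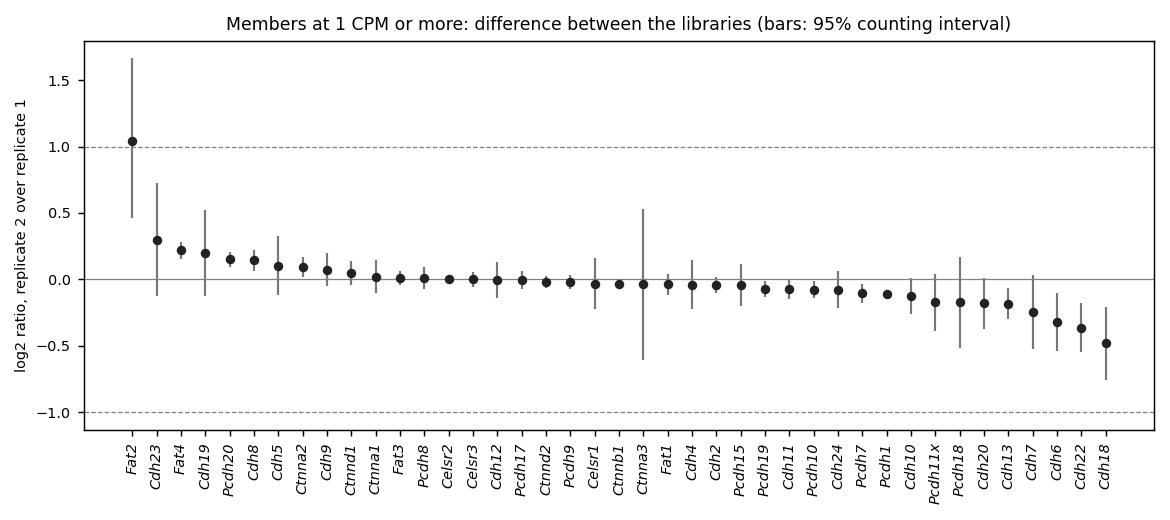
Log2 ratio of replicate 2 over replicate 1 for the 41 members at 1 CPM or more, from TMM-scaled expected counts; bars are 95% counting intervals and dashed lines mark ratios of 1 and -1. Fat2 alone lies beyond the dashed lines, at 1.04, and Cdh18 is lowest at -0.48.

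Genes that work with the members were taken from 5 lists. All 68 genes matched in the files were detected and for 0 of them did the log2 ratio reach 1 in either direction, where the share over all genes was the 0.516% given above. The highest genes of each list are given by mean level. Of 20 junction partners they were Pkp4, a p120 relative, with 120.2 and 119.5 TPM in replicates 1 and 2, and the scaffold Tjp1 with 53.3 and 68.0 TPM. Of 10 genes for cadherin processing and phosphatases the highest were the receptor phosphatase Ptprf with 30.6 and 28.5 TPM and Adam10, the protease that sheds N-cadherin, with 28.6 and 27.8 TPM, although Hook1 exceeded Adam10 in replicate 1 with 29.5 TPM.

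Effectors of protocadherins were higher than most members. Nckap1, the WAVE complex subunit that Pcdh10 binds, had 205 and 212 TPM in replicates 1 and 2, and the WAVE subunit Cyfip2 had 203 and 207 TPM, the highest of 9 genes on that list. Of 17 genes for beta-catenin destruction and transcription the highest were the kinases Csnk1a1, with 123 and 127 TPM, and Gsk3a, with 83.7 and 80.4 TPM, although Apc exceeded Gsk3a in replicate 2 with 82.0 TPM. The factors that beta-catenin joins on DNA were low, from 1.29 TPM for Tcf7 to 4.25 TPM for Tcf7l2 as means. Of 12 planar polarity and Fat-Dachsous partners the highest were Prickle2, with 75.1 and 82.8 TPM, and Dvl1, with 32.3 and 31.6 TPM. The Fat4 ligand Dchs1 had 6.00 and 5.49 TPM, below Fat4 in both libraries.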

How the data were processed

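Members, lists and pairs were chosen with earlier results of these data known; the exon, transcript-type and overlap descriptions and their minimums were added after the values were seen. For each library the authors deposited gene and transcript tables with an expected count, a TPM value and a score (posterior mean and bounds of a TPM interval, taken as the 95% interval of RSEM's layout), per the file headers. A further deposited transcript table gives estimated counts and TPM, per the file headers, in kallisto's layout, summed per gene as the second quantification. The labels name mm10 and the notes with the files the M21 annotation; aligner and strand setting are not given in the sources used here. All 55536 gene identifiers matched GENCODE M21. Left out were 97 spike-in entries (0.378% and 0.368% of all expected counts, spike-ins included) and 26248 further entries (4 and 6.99 counts). Expected counts were rounded for edgeR 4.0.16 (R 4.3.3, limma 3.58.1), which gave TMM factors and the common dispersion. Ratios used a pseudocount of 0.5. Intervals and limits for 0 counts cover counting error only. Every detected member is named with its values, as are the 2 highest genes, by mean, of each of the 5 partner lists; other names were chosen after their values were seen. Of 71 listed partner genes 68 matched. Methods were tested on simulated data. Scripts ran in Python 3.11.15 with scipy 1.17.1, pandas 2.3.3 and numpy 2.4.6, and matplotlib 3.10.9 drew the figures. Alternatives were DESeq2 1.42.0 size factors, other minimums and pseudocounts, the posterior mean TPM, the second quantification and each library left out.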

Additional observations from a re-analysis of the deposited data

How the results depend on the processing

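Of 74 recalculated values, 24 leave out 1 of 2 libraries and are within 1 SD by arithmetic, so they say nothing of stability. Of the other 50, 32 stayed within the spread between libraries, or within 1.5-fold for a count, and 18 moved. For the members' median log2 ratio the spread used was that of a single gene (0.099). A median over many genes could hardly leave it, so those settings say little of stability. No pair called separate in both libraries changed direction. The members' sum was 1964 TPM in the second quantification and 2862 TPM when rescaled to nuclear protein-coding genes, against 1156 TPM; with each library alone it was 1148 and 1165. Members at a log2 ratio of 1 or more in size numbered 3 with no filter on low counts (Fat2, Cdh26 and Cdh3, beside 20.2% of all genes) and 0 at a minimum of 5 CPM or a pseudocount of 5. In the second quantification the log2 ratios were 2.49 for Ctnnd2 over Ctnnd1, 0.75 for Ctnna2 over Ctnna1, 2.73 for Ctnnb1 over Ctnna2, -1.17 for Cdh13 over Cdh2, 0.012 for Cdh8 over Cdh11, 1.64 for Pcdh9 over Pcdh7, -1.60 for Pcdh17 over Pcdh10 and 0.70 for Fat3 over Fat1. With the posterior mean TPM they were 2.98 for Cdh2 over Cdh4, -1.36 for Cdh13 over Cdh2, 1.46 for Pcdh9 over Pcdh7 and 0.60 for Fat3 over Fat1. Leaving out a library kept the count of mixed exons between 17 (without replicate 2) and 28 (without replicate 1), against 14 in both, since exons near the limits then need to pass in 1 library; these exon settings were chosen after seeing the data. The second quantification gave 18. The cause of the other moves was not tested. No paired analysis was possible because the samples form 1 group. Levels under about 1 TPM rest on few counts.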
